A study of Mus musculus with 4 samples.

Results

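The genes described here are those that write, maintain and remove methyl groups on cytosine in DNA: the maintenance methyltransferase Dnmt1 and its partner Uhrf1, the de novo methyltransferases Dnmt3a and Dnmt3b, and the dioxygenases Tet1, Tet2 and Tet3. They were taken by gene name from the array's own annotation, which gave 7 genes of the 32468 with values and 18 probes, and every probe is reported on all 4 arrays. The study asked how the Nr4a nuclear receptors, which are induced within hours of antigen stimulation, act in the differentiation of naive CD4+ T cells into induced Treg (iTreg) cells. RNA was measured on single-colour 60-mer oligonucleotide arrays, with 1 array each for naive T cells and for cells after 3 h in iTreg culture (iTreg 3 h), of WT and of Nr4a-TKO origin, 4 in all. No group has a replicate, so no test could be run and differences are given as log2 values, with more than 2-fold taken as the threshold.

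The cells were mouse CD4+ T cells sorted as CD25 low, CD44 low, CD62L high and Foxp3- from spleen and lymph nodes of bone marrow chimeras on the C57BL/6J background, made in irradiated Rag2-/- hosts, which have no T or B cells of their own. The Nr4a-TKO cells carried floxed Nr4a1, floxed Nr4a2 and Nr4a3-/- and were the Ly5.2+ fraction of chimeras that had received WT and Nr4a-TKO marrow together. The WT cells were Ly5.2+ cells of chimeras that had received WT marrow, so the genotype and the kind of chimera cannot be told apart. Both genotypes carried a human CD2-CD52 reporter in Foxp3. The iTreg 3 h groups had been cultured for 3 h with plate-coated anti-CD3 at 2 µg/ml, anti-CD28 at 0.5 µg/ml, antibodies to IFN-γ and IL-4, IL-2 at 10 ng/ml and TGF-β1, for which the methods give 0.2 and 0.5 ng/ml without saying which was used for the arrays. The naive groups were not cultured. How many animals contributed to each RNA sample is not given in the sources used here.

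Dnmt1 copies methylation onto the new strand after DNA replication, and Uhrf1 brings it there by binding hemimethylated CpG. Dnmt3a and Dnmt3b place methyl groups on unmethylated CpG, and the Tet enzymes oxidise 5-methylcytosine to 5-hydroxymethylcytosine and beyond, which opens the way to its loss. In T cells these enzymes are known above all for the Foxp3 locus, whose conserved intronic enhancer is methylated in naive cells and demethylated in stable Treg cells, and for the silencing of cytokine genes.

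Between 65% and 67.7% of the probes were well above background on each array. The scanner headers give the 4 arrays the same scan time. All 10 activation genes examined were more than 2-fold higher at 3 h in both genotypes, and all 6 CD4 T cell markers were well above background on every array. The targeted genes did not all follow the genotype labels: at 3 h the brighter Nr4a2 probe gave a log2 difference, Nr4a-TKO minus WT, of 1.38, while 2 of 3 Nr4a3 probes gave -1.86 and -1.47. The remaining Nr4a3 probe, the brightest, gave 0.19 at 3 h. The Nr4a1 probe was also higher on the Nr4a-TKO arrays, by 1.34 in naive T and 0.48 at 3 h. Every direction between the genotypes below rests on the labels. Markers of B cells, which the sort should remove, were well above background on every array and higher on the Nr4a-TKO arrays, for 6 of 7 genes in naive T (median log2 difference 0.70) and for 7 of 7 at 3 h (median 0.86). Their part in the differences between genotypes was not tested.

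As a measure of the error within an array, probes printed 5 or more times put the SD of any log2 difference at 0.174. That SD was 0.385 for probes with a log2 level under 5, 0.199 from 5 to 7 and 0.168 over 7. It covers the spots on an array and not the spread between mice or cultures. In bulk RNA, fewer cells that express a gene and less RNA of it per cell cannot be told apart.

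By the brightest probe of each gene, Dnmt3a and Dnmt3b were more than 2-fold higher and Tet1 more than 4-fold lower at 3 h in both genotypes. With a gene's probes averaged, Dnmt3a stayed past 2-fold only in WT (1.15, against 0.86 in Nr4a-TKO) and Dnmt3b in neither genotype (0.81 and 0.88), while Tet1 was past it in both (-1.64 and -1.62). For Dnmt3a and Dnmt3b in WT and Tet1 in both genotypes the mean includes a dim probe whose change is only a bound. Tet3 was lower at 3 h, more than 2-fold so only in Nr4a-TKO, and Uhrf1 was higher on the Nr4a-TKO arrays at both stages without reaching 2-fold. With each gene read by its brightest probe, 2 of 7 were more than 2-fold higher and 1 lower at 3 h in WT, where 8.43% and 8.57% of all 23209 genes tested were. In Nr4a-TKO the counts were 2 higher and 2 lower, against 7.82% and 8% of 23698 genes. By every probe, 5 of 18 were more than 2-fold higher and 2 lower in WT, against 9.27% and 8.49% of all probes, and 3 were higher and 4 lower in Nr4a-TKO, against 8.23% and 7.94%.

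**Figure D1:**
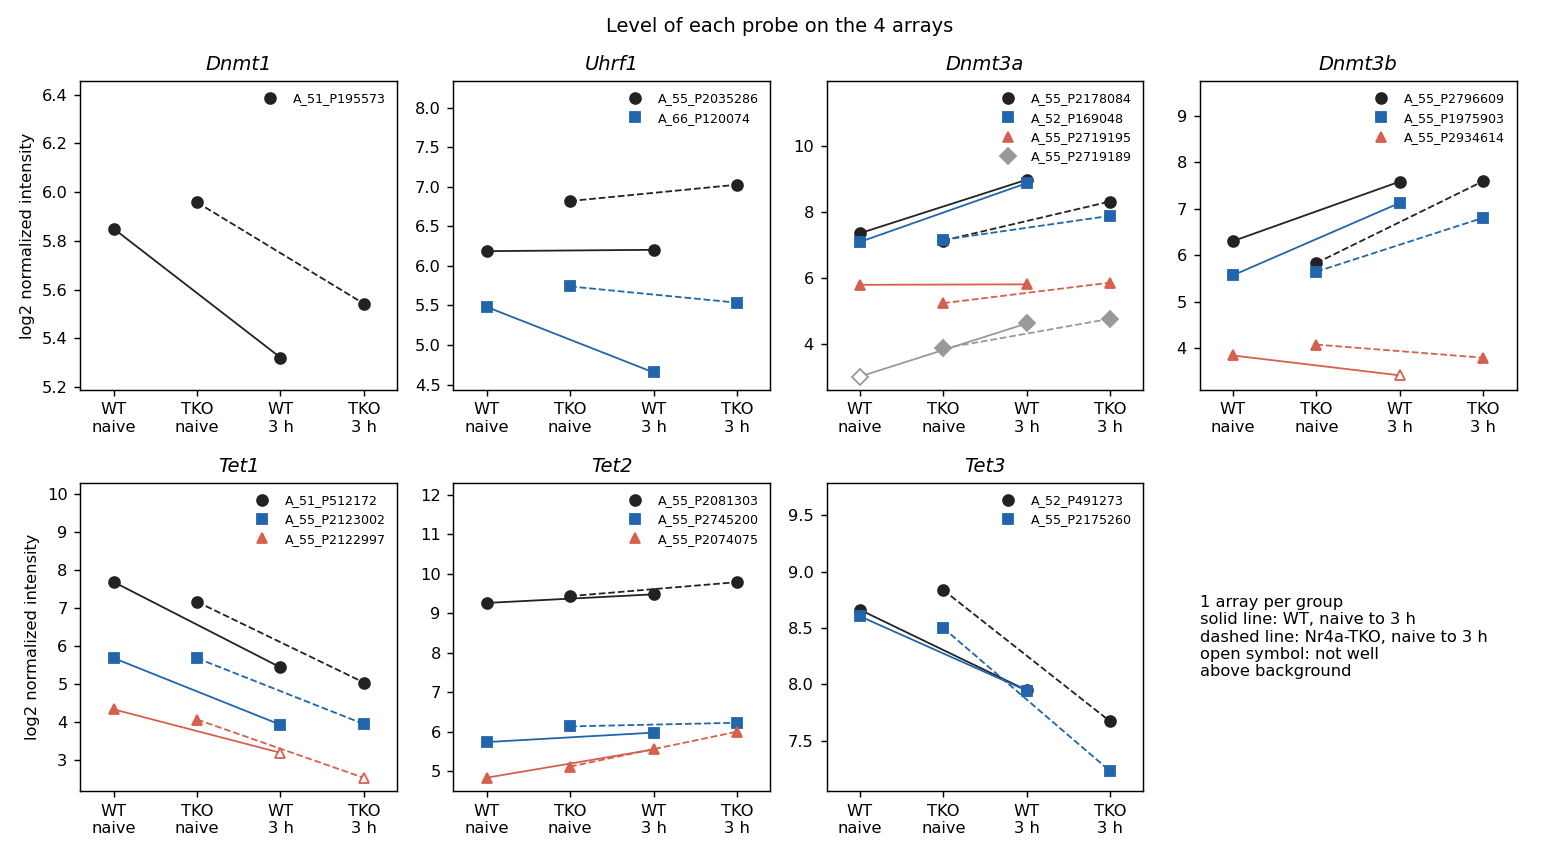
Log2 normalized intensity (y axis) of each of the 18 probes on the 4 arrays (x axis), 1 panel per gene, with lines from naive T to iTreg 3 h for WT (solid) and Nr4a-TKO (dashed) and open symbols where the probe was not well above background. Levels of different probes cannot be compared. The 2 brightest Dnmt3a probes and the 2 brightest Dnmt3b probes run upward, the 3 Tet1 probes and the 2 Tet3 probes downward.

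Dnmt1 was the flattest of the methyltransferases. Its only probe (A_51_P195573, chr9:20711973-20712341 of mm9, minus strand) covers 369 bases of genome with 60 bases of probe and therefore reads across an intron. It is shown because it is the sole reading of the gene.

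Dnmt1 A_51_P195573: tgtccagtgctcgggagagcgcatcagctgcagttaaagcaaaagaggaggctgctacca

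The probe gave a log2 level of 5.85 on the WT naive array, 5.96 on Nr4a-TKO naive, 5.32 on WT iTreg 3 h and 5.54 on Nr4a-TKO iTreg 3 h. Both 3 h arrays were below both naive arrays, with changes of -0.53 in WT and -0.42 in Nr4a-TKO, which is 1.44-fold and 1.33-fold lower and short of the threshold. The genotypes differed by 0.11 in naive T and 0.22 at 3 h, about the size of the error between spots.

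Uhrf1, which recognises hemimethylated CpG and recruits Dnmt1, was read by 2 probes on chromosome 17. The brighter (A_55_P2035286, chr17:56462770-56462829) gave 6.19 in WT and 6.82 in Nr4a-TKO naive T, and 6.2 in WT and 7.02 in Nr4a-TKO cells at 3 h. Both Nr4a-TKO arrays were above both WT arrays, and the stage made little difference. The log2 difference between genotypes was 0.63 in naive T (1.55-fold) and 0.82 at 3 h (1.77-fold).

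The other Uhrf1 probe (A_66_P120074, chr17:56451668-56452321) spans 654 bases of genome and so also crosses an intron.

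Uhrf1 A_66_P120074: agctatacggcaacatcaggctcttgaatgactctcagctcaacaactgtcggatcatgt

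It gave 5.48 in WT and 5.74 in Nr4a-TKO naive T, and 4.65 in WT and 5.54 in Nr4a-TKO cells at 3 h. Here too Nr4a-TKO was the higher, by 0.26 in naive T and 0.88 at 3 h. The low array was WT iTreg 3 h, with a change from WT naive T of -0.83 where the brighter probe gave 0.02. With processed intensity scaled by each array's 75th percentile, in place of normexp and quantile normalization, this probe passed 2-fold. The WT change was then -1.24 and the difference between genotypes at 3 h 1.18. With normexp and an offset of 50 these were -0.33 and 0.36, and without background correction -0.56 and 0.58.

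For comparison, a difference at 3 h further above 0 than that of Uhrf1's brighter probe was seen for 2.56% of all 23483 genes tested, and in naive T for 4.51% of 23097. Genes of S phase, with which Uhrf1 and Dnmt1 are known to be expressed, were also mostly higher on the Nr4a-TKO arrays: 16 of 17 tested were above 0 at 3 h with a median log2 difference of 0.28, and 13 of 17 in naive T with a median of 0.17, where the medians over all genes were 0.00 and -0.02. Rrm2, a subunit of ribonucleotide reductase, was the only one of them more than 2-fold apart at 3 h (at least 2.16-fold higher in Nr4a-TKO, since it was not well above background in WT), and Top2a, a DNA topoisomerase, the only one in naive T (1.03). Among all genes 1.74% were more than 2-fold higher and 1.93% lower at 3 h, and 1.92% and 1.68% in naive T. With stage the list moved little, with medians of -0.15 in WT and 0.07 in Nr4a-TKO: Pcna, the replication clamp that Dnmt1 binds, was 1.07 and 1.05 higher at 3 h, while in WT Mki67, a proliferation marker, gave -1.11 and Rrm2 was at least 3.86-fold lower. The summed level of the B cell markers stood at 10.24 and 9.88 (log2) on the WT arrays and at 10.88 on both Nr4a-TKO arrays, moving the same way as Uhrf1, and their part in it was not tested.

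Of the 12 promoter windows that RefSeq gives for the 7 genes (250 bases before and 50 after a start site, GRCm38.p6), 1 of 2 for Uhrf1 and 1 of 3 for Dnmt1 hold the letters TTTCGCGC, the site bound by E2F factors at replication genes, on either strand. These letters occur in 0.323% of all 32851 windows. The Uhrf1 and Dnmt1 windows that hold them each have 33 CG dinucleotides, against a median of 7 over all windows. The share among windows of like CG content was not computed. The Uhrf1 sequence of the 250 bases before the start (GRCm38.p6, chr17:56304063-56304312, plus strand) is shown with TTTCGCGC, which lies 185 bases before the start, and 3 copies of the GC box letters GGGCGG in capitals.

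Uhrf1 promoter: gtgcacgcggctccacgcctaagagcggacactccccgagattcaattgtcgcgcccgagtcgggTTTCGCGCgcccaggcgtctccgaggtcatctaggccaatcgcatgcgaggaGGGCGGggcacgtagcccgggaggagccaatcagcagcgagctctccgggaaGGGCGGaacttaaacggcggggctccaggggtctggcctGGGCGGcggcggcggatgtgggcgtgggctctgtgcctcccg

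The de novo enzymes were the members whose brightest probe was more than 2-fold higher after stimulation. Dnmt3a was read by 4 probes along chromosome 12, and they did not read alike. The brightest (A_55_P2178084, chr12:3914320-3914379) gave 7.36 in WT and 7.14 in Nr4a-TKO naive T, and 8.99 in WT and 8.33 in Nr4a-TKO cells at 3 h. The 3 h arrays were above the naive arrays by 1.63 in WT (3.08-fold) and by 1.19 in Nr4a-TKO (2.28-fold). The next (A_52_P169048, chr12:3908227-3908286) gave 7.10, 7.16, 8.88 and 7.89 in the same order, a change of 1.78 in WT (3.44-fold) and of 0.73 in Nr4a-TKO (1.66-fold). With normexp and an offset of 50 the Nr4a-TKO change of the brightest probe was 0.96 and no longer past 2-fold.

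Both of these probes thus gave a smaller Dnmt3a change in Nr4a-TKO than in WT, with differences of -0.44 and -1.06. The second is the only one of the members' 15 probes well above background on all 4 arrays whose changes differed by more than 2-fold between genotypes. By 1 probe per gene, 0 of 7 members passed 2-fold by this measure, where 1.72% of 19789 genes were higher and 1.58% lower. The share over every probe was not computed. With normexp and an offset of 50 the changes of A_52_P169048 were 1.48 in WT and 0.57 in Nr4a-TKO. Without background correction they were 1.663 and 0.664. In both settings they were less than 2-fold apart. At 3 h the difference between genotypes was -0.66 (1.58-fold lower in Nr4a-TKO) for the brightest probe and -0.99 (1.99-fold lower) for A_52_P169048. In naive T the differences were -0.22 and 0.07. A difference further below 0 than -0.66 at 3 h was seen for 4.12% of all genes.

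The other Dnmt3a probes lie closer to the start of the gene and were dimmer. Neither was lower in Nr4a-TKO at 3 h. A_55_P2719195 (chr12:3895249-3895308) gave 5.80 in WT and 5.24 in Nr4a-TKO naive T, and 5.81 in WT and 5.86 in Nr4a-TKO cells at 3 h, so that WT did not move (0.01) and Nr4a-TKO was 0.62 higher at 3 h. A_55_P2719189 (chr12:3838728-3838787) was not well above background in WT naive T and gave 3.87 in Nr4a-TKO naive T and 4.62 in WT and 4.76 in Nr4a-TKO cells at 3 h. It was at least 2.26-fold higher at 3 h than in naive T in WT and 1.86-fold higher in Nr4a-TKO, and the 3 h arrays differed by 0.14. Both are annotated in the files to transcript models other than those of the brighter probes, and a processed copy of Dnmt3a in the mouse genome may share sequence with some probes.

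Dnmt3b was read by 3 probes on chromosome 2. A_55_P2796609 (chr2:153513402-153513461) gave 6.30 in WT and 5.83 in Nr4a-TKO naive T, and 7.59 in WT and 7.59 in Nr4a-TKO cells at 3 h. The 3 h arrays reached the same level, 1.28 above naive T in WT (2.43-fold) and 1.76 above it in Nr4a-TKO (3.39-fold), because the naive arrays already differed by -0.47, Nr4a-TKO minus WT. A_55_P1975903 (chr2:153512098-153512157) gave 5.57, 5.65, 7.13 and 6.81 in the same order. Its change was 1.56 in WT (2.94-fold) and 1.16 in Nr4a-TKO (2.23-fold), so these probes order the genotypes in opposite ways, by 0.48 and -0.40, Nr4a-TKO change minus WT change. With normexp and an offset of 50 the change of the brighter probe in WT was 0.91 and no longer past 2-fold.

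The third Dnmt3b probe (A_55_P2934614) joins 2 pieces of genome within chr2:153476617-153487201, a span of 10585 bases, near the start of the gene. It gave 3.84 in WT and 4.08 in Nr4a-TKO naive T and 3.79 in Nr4a-TKO cells at 3 h, and was not well above background in WT iTreg 3 h. It was thus lower rather than higher at 3 h, with a change of -0.28 in Nr4a-TKO and at least 1.33-fold lower in WT, in the range of levels where the error is widest. The mouse genome has a close duplicate of Dnmt3b, Dnmt3c, and how far the probes tell them apart was not analysed here.

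RefSeq gives 3 windows for Dnmt3a and 1 for Dnmt3b, the members whose brightest probes were more than 2-fold higher at 3 h. The first of Dnmt3a and that of Dnmt3b are shown because they share 2 of the searched patterns: AGGAAG, the core bound by Ets factors, and GGGCGG, the GC box, both in capitals on either strand. The third Dnmt3a window holds the GC box letters and not AGGAAG. The patterns are not particular to these genes: AGGAAG is also in windows of Dnmt1 and Tet1, and the GC box letters are in a window of every member. These letters are common, in 35.4% and 35.7% of all windows. The Nr4a letters AAAGGTCA and AAATGTCA, found in 1.51% and 1.53% of all windows, are in none of the 12 windows of the members. The sequences are the 250 bases before the start on the plus strand of GRCm38.p6, chr12:3806730-3806979 and chr2:153649199-153649448.

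Dnmt3a promoter: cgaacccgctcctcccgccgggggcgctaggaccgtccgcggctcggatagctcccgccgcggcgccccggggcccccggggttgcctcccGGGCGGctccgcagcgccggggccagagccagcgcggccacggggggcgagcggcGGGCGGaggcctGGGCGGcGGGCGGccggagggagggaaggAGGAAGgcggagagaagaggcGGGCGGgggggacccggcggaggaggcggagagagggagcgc

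Dnmt3b promoter: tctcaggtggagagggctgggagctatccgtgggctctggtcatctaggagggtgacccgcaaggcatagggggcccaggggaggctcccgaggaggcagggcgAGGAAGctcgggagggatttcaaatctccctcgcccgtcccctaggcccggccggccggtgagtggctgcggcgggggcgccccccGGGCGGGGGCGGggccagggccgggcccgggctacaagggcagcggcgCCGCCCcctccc

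The Dnmt3a windows hold 46, 47 and 18 CG dinucleotides and the Dnmt3b window 30, against a median of 7 over all windows. A match of letters is a description of the sequence, and binding at these windows was not analysed here.

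Tet1 had the largest change of the 7 genes and moved opposite to the de novo enzymes. The probe A_51_P512172 (chr10:62276042-62276101, minus strand) gave 7.69 in WT and 7.17 in Nr4a-TKO naive T, and 5.44 in WT and 5.04 in Nr4a-TKO cells at 3 h. The change was -2.25 in WT (4.76-fold lower) and -2.13 in Nr4a-TKO (4.37-fold lower), and with normexp and an offset of 50 it was -1.46 and -1.22. Only 1.58% of all genes tested lay further below 0 in WT, and 1.6% in Nr4a-TKO.

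A second Tet1 probe (A_55_P2123002, chr10:62301856-62301915, minus strand) lies elsewhere in the gene and gave the same direction, with 5.68 on both naive arrays, 3.93 in WT iTreg 3 h and 3.94 in Nr4a-TKO iTreg 3 h. The changes were -1.76 and -1.74, or 3.38-fold and 3.33-fold lower. Its levels at 3 h lie in the range where the error is widest, and the size of the change depended on the processing. With normexp and an offset of 50 the changes were -0.64 and -0.63, short of 2-fold. With processed intensity scaled by the 75th percentile they were -2.66 and -2.48. The third (A_55_P2122997, chr10:62274448-62274507) gave 4.33 in WT naive T and 4.06 in Nr4a-TKO naive T and was not well above background on either 3 h array, at least 1.87-fold lower in WT and at least 1.99-fold lower in Nr4a-TKO. Since these 3 probes read different stretches of the gene and each was lower at 3 h in both genotypes, the sequences of the 2 that stayed measurable are given.

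Tet1 A_51_P512172: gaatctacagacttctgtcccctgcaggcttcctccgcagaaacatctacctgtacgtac

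Tet1 A_55_P2123002: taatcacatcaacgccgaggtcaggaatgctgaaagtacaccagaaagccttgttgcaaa

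Between genotypes the Tet1 probes did not give 1 answer. The brighter gave -0.52 in naive T and -0.40 at 3 h, Nr4a-TKO minus WT, and the second -0.00 and 0.02. The change itself was alike in size, with Nr4a-TKO minus WT at 0.13 and 0.02, both under the error between spots. The window before the Tet1 start (chr10:62887325-62887574 of GRCm38.p6, minus strand) is shown beside those of Dnmt3a and Dnmt3b, since it holds the same Ets and GC box letters, here in capitals, although Tet1 moved the other way.

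Tet1 promoter: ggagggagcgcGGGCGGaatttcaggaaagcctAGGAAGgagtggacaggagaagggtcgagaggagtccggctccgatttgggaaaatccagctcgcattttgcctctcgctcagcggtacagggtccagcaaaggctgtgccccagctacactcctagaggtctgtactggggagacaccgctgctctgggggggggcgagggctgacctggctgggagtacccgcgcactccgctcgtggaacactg

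Tet2, the Tet enzyme best known from blood cells, changed little. Its brightest probe (A_55_P2081303, chr3:133126751-133126810) gave 9.26 in WT and 9.43 in Nr4a-TKO naive T, and 9.48 in WT and 9.79 in Nr4a-TKO cells at 3 h. A_55_P2745200 (chr3:133129701-133129760) gave 5.74, 6.14, 5.98 and 6.23 in that order, and A_55_P2074075 (chr3:133176421-133176479) gave 4.84, 5.12, 5.56 and 6.01. Each of the 3 probes was higher at 3 h and higher in Nr4a-TKO, but no difference passed 2-fold. The changes at 3 h ran from 0.22 to 0.71 in WT and from 0.09 to 0.88 in Nr4a-TKO, and the differences between genotypes from 0.17 to 0.45 over both stages.

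Tet3, by contrast, was lower at 3 h. A_52_P491273 (chr6:83352743-83352802, minus strand) gave 8.66 in WT and 8.84 in Nr4a-TKO naive T, and 7.95 in WT and 7.67 in Nr4a-TKO cells at 3 h, and A_55_P2175260 (chr6:83319720-83319779, minus strand) gave 8.60, 8.50, 7.94 and 7.23. Both probes placed the Nr4a-TKO array lowest at 3 h. They are bright, lie in different parts of the gene and gave the same order of genotypes at 3 h, though not in naive T (0.18 and -0.10, Nr4a-TKO minus WT), and are shown for that reason.

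Tet3 A_52_P491273: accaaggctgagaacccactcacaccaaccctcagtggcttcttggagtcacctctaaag

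Tet3 A_55_P2175260: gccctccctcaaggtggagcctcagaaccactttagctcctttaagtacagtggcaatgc

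The Tet3 change was -0.71 and -0.66 in WT (1.64-fold and 1.58-fold lower) and -1.17 and -1.27 in Nr4a-TKO (2.24-fold and 2.41-fold lower). Tet3 was therefore below the threshold in WT and past it in Nr4a-TKO, and the changes differed by -0.45 and -0.61, Nr4a-TKO minus WT. At 3 h itself the genotypes differed by -0.28 and -0.71.

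**Figure D2:**
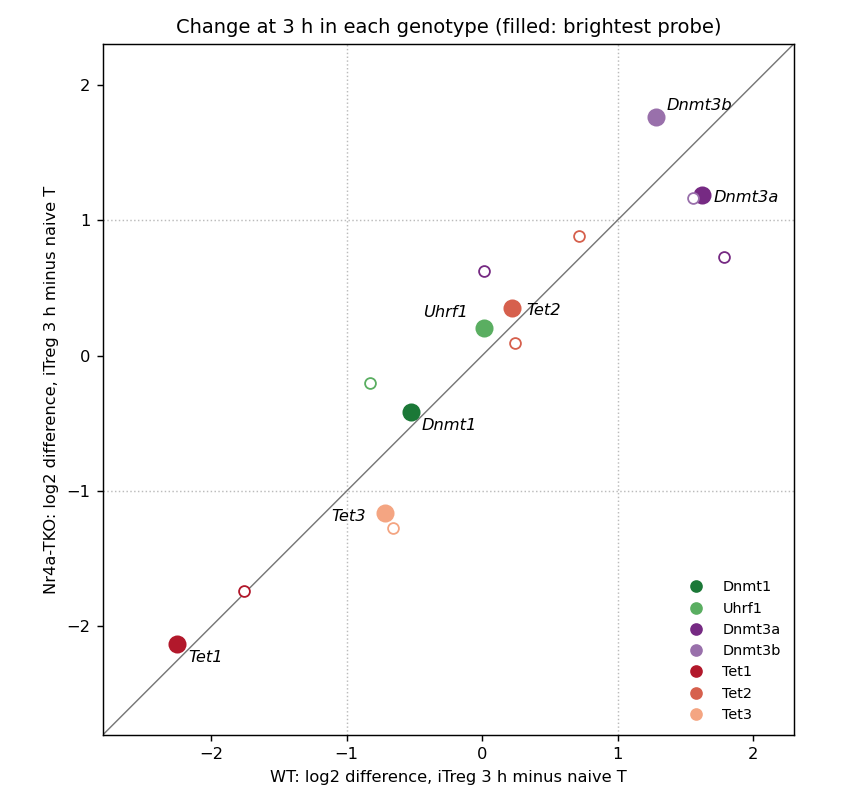
Log2 difference between iTreg 3 h and naive T in WT (x axis) and in Nr4a-TKO (y axis) for the 15 probes well above background on all 4 arrays, with filled points for the brightest probe of a gene, dotted lines at 2-fold and a solid line of equal change. Dnmt3a and Dnmt3b lie in the upper right, Tet1 in the lower left at -2.25 and -2.13, and the Dnmt3a probe A_52_P169048 furthest from the line of equal change.

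Between the genotypes no member passed 2-fold by its brightest probe, neither in naive T, where 1.92% of all genes were higher and 1.68% lower, nor at 3 h, where 1.74% were higher and 1.93% lower. Nor did any of the 18 probes compared in naive T, against 1.83% higher and 1.67% lower of all probes, or of the 17 at 3 h, against 1.64% and 1.89%. With processed intensity scaled by each array's 75th percentile, 2 probes did at 3 h, Uhrf1 A_66_P120074 (1.18) and Dnmt3a A_52_P169048 (-1.05). In naive T the members ran from -0.52 for Tet1 to 0.63 for Uhrf1 with 4 of 7 above 0 and a median of 0.11. At 3 h they ran from -0.66 for Dnmt3a to 0.82 for Uhrf1 with 4 of 7 above 0 and a median of 0.01. The largest genotype difference of any probe was that of Dnmt3a A_52_P169048 at 3 h (-0.99).

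The difference of the changes, Nr4a-TKO minus WT, ran from -0.45 for Tet3 to 0.48 for Dnmt3b by the brightest probes, and 0 of 7 passed 2-fold, where 1.72% of 19789 genes were higher and 1.58% lower. For Tet3 both probes gave the same sign (-0.45 and -0.61), as they did for Uhrf1 (0.19 and 0.62) and Tet1. For Dnmt3a, Dnmt3b and Tet2 the probes differed in sign, from -0.15 to 0.17 for Tet2.

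**Figure D3:**
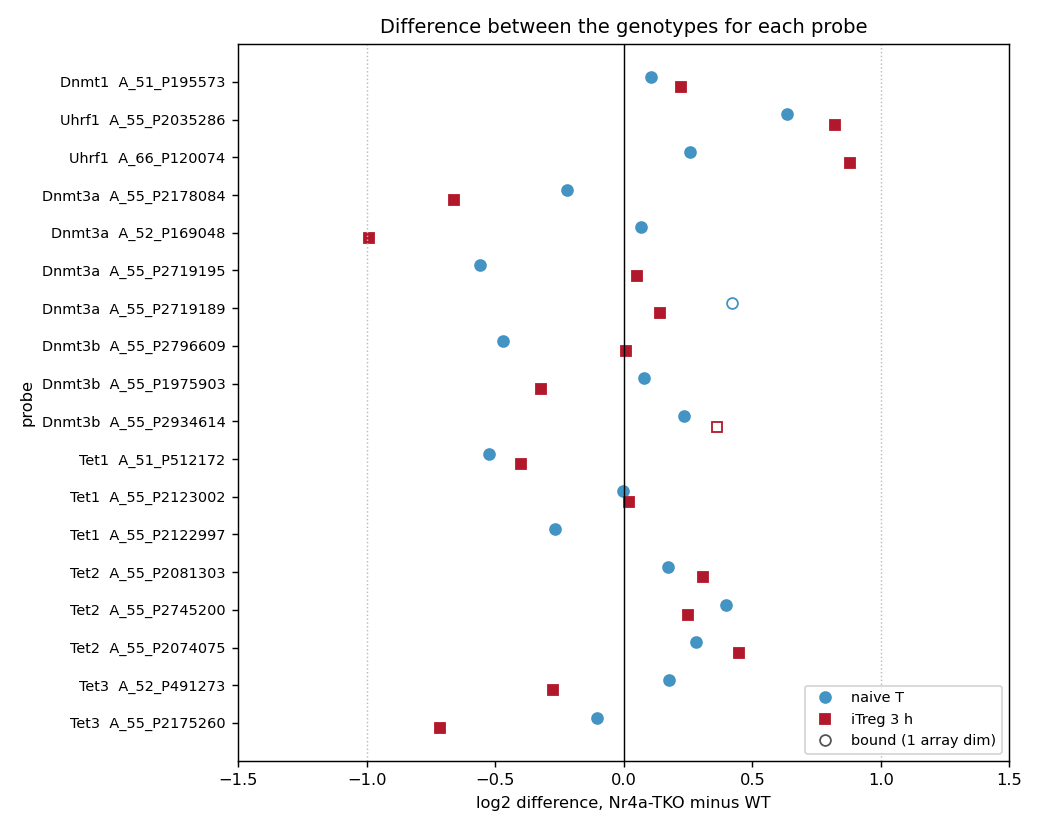
Log2 difference between Nr4a-TKO and WT (x axis) for each of the 18 probes (y axis) in naive T (circles) and at 3 h (squares), with open symbols for bounds and dotted lines at 2-fold; 1 Tet1 probe has no value at 3 h because both arrays were dim. No point is beyond 2-fold, both Uhrf1 probes are to the right at both stages and 2 Dnmt3a and 2 Tet3 probes are to the left at 3 h.

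Genes that act with the members were read the same way, each by its brightest probe. Of 8 partners of the methyltransferases, 7 could be compared in WT, with 1 more than 2-fold higher and 1 lower and a median of 0.03, where the median over all genes was -0.05. The one that was higher was Cdca7, which works with the remodeller Hells in keeping DNA methylated, by 2.43 in WT and 2.69 in Nr4a-TKO. The one that was lower was Zbtb24, a regulator of Cdca7, with changes of -1.08 in WT and -0.65 in Nr4a-TKO, where 1 of 8 was higher and 0 lower. The shares of all genes tested were 8.43% higher and 8.57% lower in WT, and 7.82% and 8% in Nr4a-TKO. Hells was not well above background on the WT arrays and was at least 1.29-fold higher in Nr4a-TKO in naive T and at least 1.41-fold higher at 3 h.

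Among 22 genes that act on the oxidised bases, supply the Tet cofactor or assist demethylation, 20 were tested at 3 h, of which 5 were more than 2-fold higher and 4 lower in WT (median 0.14) and 4 higher and 4 lower in Nr4a-TKO (median 0.30). Over all genes 8.43% were higher and 8.57% lower in WT, and 7.82% and 8% in Nr4a-TKO. Gadd45b, a stress-induced adaptor, was the highest at 3.67 in WT and 3.20 in Nr4a-TKO. Tdg, the glycosylase that excises the oxidised bases, was higher by 1.77 and 1.47. Idh2, which makes the Tet cofactor α-ketoglutarate in mitochondria, was the lowest, with -2.67 and -2.31, followed by Gadd45a with -2.32 and -1.93 and by D2hgdh, which removes D-2-hydroxyglutarate, with -2.02 and -1.74. Between genotypes Gadd45g alone passed 2-fold, 1.21 higher in Nr4a-TKO at 3 h, where 1.74% of all genes were more than 2-fold higher.

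The list of methyl-CpG readers holds 9 genes from families of methyl-CpG binding proteins. Of these, Mbd3, Mbd5 and Mbd6 are not established readers of methylated CpG. In WT 0 of the 9 were more than 2-fold higher and 3 were lower (median -0.52), and 1 was lower in Nr4a-TKO (median -0.75). Over all genes 8.57% and 8% were lower. In each genotype 3 of 9 were above 0, the highest being Mbd3 with 0.50 and 0.73. Zbtb4 gave -1.30 and -0.84, Zbtb38 -1.16 and -1.19 and Mbd5 -1.01 and -0.84. Of 5 CXXC proteins that bind unmethylated CpG, Kdm2b, a histone demethylase, was the only one past 2-fold, 3.20 higher at 3 h in WT and 2.14 in Nr4a-TKO, and the changes differed by -1.06, Nr4a-TKO minus WT. Genes more than 2-fold higher made up 8.43% of all genes in WT and 7.82% in Nr4a-TKO. For the difference of the changes, 1.58% of 19789 genes were more than 2-fold lower.

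Genes listed for the supply of the methyl donor S-adenosylmethionine and the clearing of its product were mostly higher at 3 h, 7 of 8 in each genotype. The exception was Mat2b, with -0.88 in WT and -0.60 in Nr4a-TKO. The list includes Ahcyl1 and Ahcyl2, relatives of Ahcy that are not established as hydrolysing S-adenosylhomocysteine. Ahcyl1 is among the genes past 2-fold in both genotypes and Ahcyl2 in Nr4a-TKO. Of 8, 4 were more than 2-fold higher in WT and 5 in Nr4a-TKO, with 0 lower in either and medians of 0.86 and 1.04, where 8.43% and 7.82% of all genes were higher and the medians over all genes were -0.05 and -0.02. Mtrr, which reactivates methionine synthase, gave 2.12 and 2.00, Mat2a, which makes S-adenosylmethionine, 1.63 and 1.57, Ahcyl1 1.21 and 1.03, and Ahcy, which hydrolyses S-adenosylhomocysteine, 1.14 and 1.05. Between genotypes 0 of 8 passed 2-fold at either stage. Of all genes, 1.92% were higher and 1.68% lower in naive T, and 1.74% and 1.93% at 3 h.

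Of 5 genes whose regulatory regions are demethylated in Treg cells, Foxp3 gave a difference between genotypes, Nr4a-TKO minus WT, of -1.31 in naive T and -1.36 at 3 h and a change of 0.11 in WT and 0.07 in Nr4a-TKO. Tnfrsf18 (GITR) was 2.35 and 2.87 higher at 3 h, and Ctla4 gave a change of -1.28 in Nr4a-TKO. Methylation itself was not measured on these arrays.

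**Figure D4:**
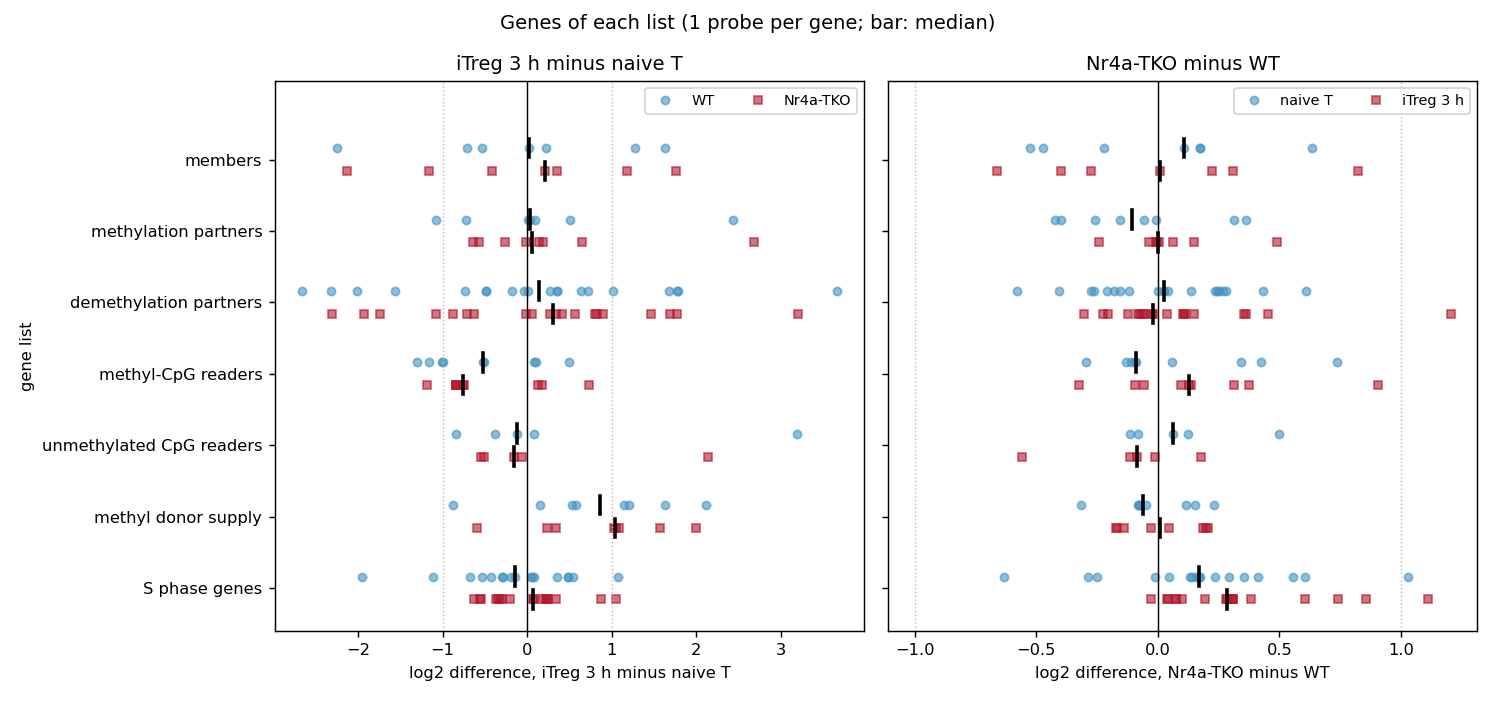
Log2 differences (x axis) of the genes of each list (y axis), 1 probe per gene, between iTreg 3 h and naive T on the left (WT and Nr4a-TKO) and between Nr4a-TKO and WT on the right (naive T and iTreg 3 h), with black bars for medians and dotted lines at 2-fold. The methyl donor genes have medians of 0.86 and 1.04 on the left, and the S phase genes a median of 0.28 at 3 h on the right.

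Among the 3 genes whose profile over the 4 arrays was nearest to that of each member, of 15636 well above background on all 4, were Septin11 and Klhdc9 for Dnmt3a, Ddx56, Chml and Ubqln4 for Dnmt3b, and Hsd11b1 and Pxylp1 for Tet1. For Uhrf1 they were Nat8l, H2-Eb1 and Ocrl, and for Tet3 Trim8, Msh3 and Fam122b. Dnmt1 (Akr1a1, Gkap1, Tmem141) and Tet2 (Rnf115, Gm20635, Crct1) have flat profiles that many genes share: 5628 and 5387 genes lay within 0.5 log2 units of them in Euclidean distance, against 114 for Tet1, 369 for Dnmt3a and 405 for Uhrf1. H2-Eb1, an MHC class II gene of B and myeloid cells, has a profile with the higher levels on both Nr4a-TKO arrays, as the B cell markers do.

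**Figure D5:**
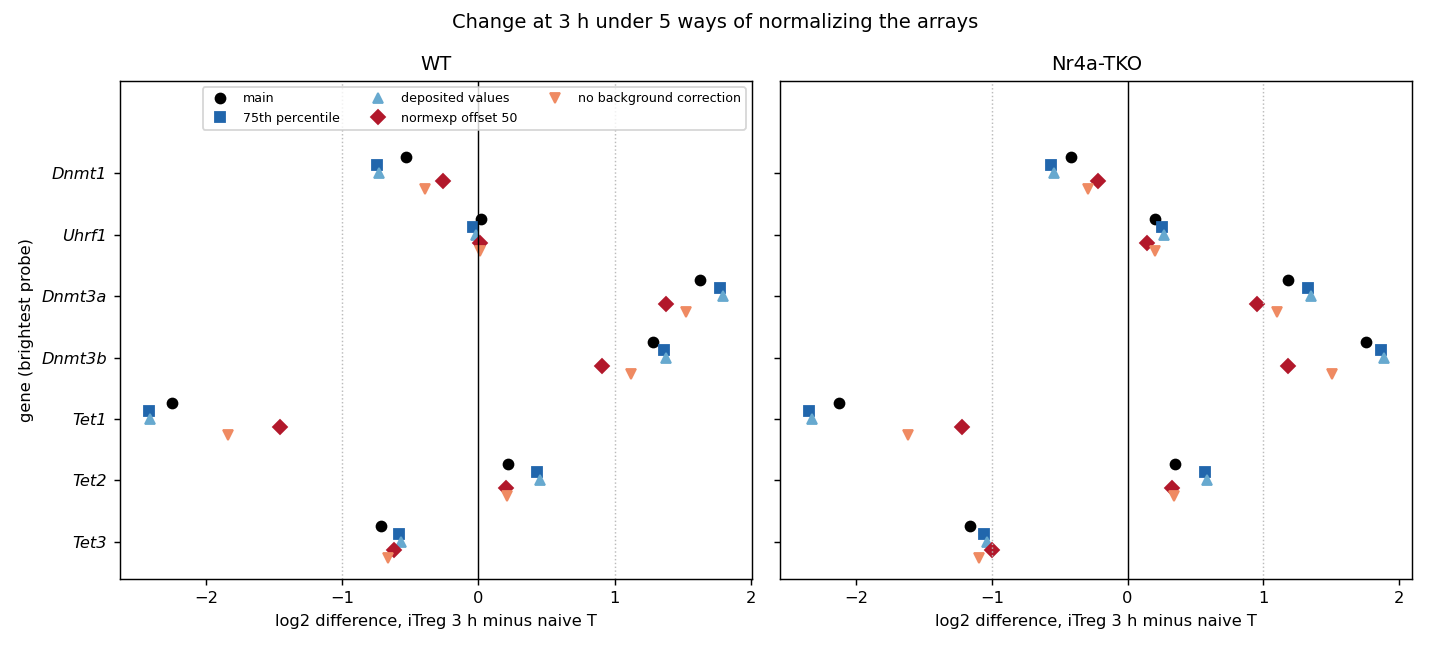
Log2 difference between iTreg 3 h and naive T (x axis) of the brightest probe of each gene (y axis) in WT (left) and Nr4a-TKO (right) under 5 ways of normalizing the arrays, with dotted lines at 2-fold. Dnmt3a, Dnmt3b, Tet1, Tet2, Tet3 and Dnmt1 keep their side of 0 throughout, Tet1 stays past 2-fold throughout, and with normexp and an offset of 50 Dnmt3b in WT and Dnmt3a and Tet3 in Nr4a-TKO are just short of 2-fold.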

How the data were processed

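RNA of 4 mouse T cell samples, 1 per group, was hybridised by the authors to single-colour Agilent arrays, scanned and extracted with Feature Extraction 11.5.1.1. The deposited scanner files give spot intensity and local background per probe, with probe coordinates on mm9. The deposited value table holds log2 processed intensity minus each array's 75th percentile, although the methods name RMA; its scale was found by setting it against the scanner values. Probe annotation columns were used for names and positions.

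Foreground intensity was corrected for local background with normexp (offset 0), control spots and spots flagged as outliers were left out, arrays were quantile normalized with limma 3.58.1 in R 4.3.3, and spots were averaged per probe on the log2 scale. Tables and figures were made in Python 3.11.15 (matplotlib 3.10.9, numpy 2.4.6, pandas 2.3.3). Each gene is represented by the probe that was brightest on average, and members are also given by every probe. Of 56605 probes, 41700 carried a current symbol, 1518 and 520 were named by transcript and synonym from RefSeq (GRCm38.p6, used for names), 8036 stayed under the files' own name and 4831 were unnamed. A comparison used genes well above background on at least 1 of the 2 arrays, and a dim array was raised to the lowest level among its probes well above background, which makes the difference a bound. Genes named from a list are those past 2-fold, at most 5 per list and the largest first, besides those chosen after their values were seen (Hells, Tdg, Mbd3). Some genes that these rules select are not reported here. Likeness of profiles is the Euclidean distance of mean-centred log2 values. The 1 array per group limits the precision, and no p-value was computed. Scripts were tested on simulated data. The members, lists and rules were chosen with earlier results of these data known. Alternatives were 4 other normalizations, the mean of all probes, 2 other filters and 1.5-fold and 3-fold thresholds.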

Additional observations from a re-analysis of the deposited data

How the results depend on the processing

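Of 245 values of the members under the alternatives, 204 moved by less than the error between spots, 41 by more, and 5 changed sign: 3 for the Uhrf1 change in WT (0.02, and -0.40 with a gene's probes averaged) and 2 for Dnmt3b between genotypes at 3 h (0.01). The 204 include values that could not move. The 2 other filters left every member as it was, since each brightest probe was well above background on all 4 arrays. Averaging could not move Dnmt1, which has 1 probe. The deposited values repeat the scaling by the 75th percentile and are counted as a separate alternative. The number of members more than 2-fold apart at 3 h in Nr4a-TKO was 4 and fell to 2 with normexp and an offset of 50 (Dnmt3b and Tet1), to 2 with a gene's probes averaged (Tet1 and Tet3) and to 2 at a 3-fold threshold (Dnmt3b and Tet1). Between genotypes 0 members passed 2-fold, and at a 1.5-fold threshold 1 did in naive T (Uhrf1) and 2 at 3 h (Uhrf1 and Dnmt3a). The cause of these shifts was not tested. With the mean of all probes the change was 1.15 for Dnmt3a and 0.81 for Dnmt3b in WT and 0.86 and 0.88 in Nr4a-TKO. Both WT means include a probe whose change is a bound. Over all alternatives Tet1 ran from -2.42 to -1.46 in WT and from -2.35 to -1.22 in Nr4a-TKO, and Uhrf1 at 3 h from 0.54 to 0.89 in the difference between genotypes. Processed intensity scaled by the 75th percentile gave a median change of all genes in WT of -0.11. The WT changes of Dnmt1 (-0.74) and Tet2 (0.43) under that setting are to be read against it. No paired analysis was possible because each group has 1 array. Signal over background limits the probes under a log2 level of 5 and the 3 probes that were dim on an array.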
